A study of Mus musculus with 5 samples.

Results

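Expression of 9 tight junction genes was followed in mouse mammary epithelium with and without a conditional deletion of Mmp14. They were the claudins Cldn1, Cldn3, Cldn4, Cldn7 and Cldn8, the MARVEL-domain proteins Ocln and Marveld3, the junctional adhesion molecule F11r and the scaffold Tjp1. A probe set counted for a gene when the platform annotation gave that gene alone, and each of the 9 genes had 1 such probe set, so that 9 of the 22180 genes tested are described here. The knockout group was 2 arrays of MMTV-Cre+/Mmp14(f/f) mice. The wild-type group was 3 arrays of Mmp14(f/f) littermates, which carry the floxed alleles too but no Cre. All mice were 4 weeks old and congenic FVB/NJ. The cells came from inguinal glands by collagenase digestion and centrifugation against stroma. MMTV-Cre expresses the recombinase from a mammary tumour virus promoter that is active in mammary epithelium, and the labels do not give the share of cells that recombined. They call the samples biological replicates without saying whether an array held 1 mouse or a pool, so the p-values cover only the spread seen among these arrays, which may be partly technical.

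Tight junctions seal the space between neighbouring epithelial cells near their apical border. Claudins form the strands and set which ions pass between cells, occludin and other MARVEL proteins lie in the same strands, junctional adhesion molecules bind across the cell gap, and zonula occludens scaffolds tie all of them to actin. In the mammary gland the luminal layer carries these junctions, and they close when milk secretion starts.

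Signals are log2 values, so 1 unit is a doubling, and differences are knockout minus wild type. Group values are means ± SD, with n = 2 for the knockout and n = 3 for the wild type. A signal depends on the probes as well as on the RNA, so levels were not compared between genes, and signal was used across probe sets only to set dim ones apart. Array medians over all probe sets ran from 4.25 to 4.29. Mmp14 itself read 7.98 and 7.28 in knockout 1 and 2 and 8.15, 8.67 and 7.75 in wild type 1, 2 and 3. The groups overlapped, with a mean difference of -0.56 ± 0.39 (SE; limma adjusted p = 0.919). The position of its probes against the deleted stretch is not known here, so this does not check the labels. Knockout 2 stood apart on the first principal component, at 25.3 against -12.5 to 4.63 for the other arrays. Values without it are given for each of the 9 genes, but not for every other gene named. The defining epithelial markers Epcam, Krt8 and Krt18 read 9.98 to 10.1, 11.3 to 11.5 and 11.2 to 11.4 over the 5 arrays, while Rab25, from the same list, read 7.22 in knockout 2 and 7.92 to 8.24 on the other arrays (all 4 chosen after their values were seen). Values equal to 6 decimals between at least 2 arrays occurred in 68.8% of the genes tested and in 4 of the 9 tight junction genes, and such ties can lower a gene's estimated spread.

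Cldn4, a claudin that lowers sodium passage in many epithelia, was higher on both knockout arrays than on any wild-type array, by a small margin. It read 9.75 and 9.74 in knockout 1 and 2 and 9.69, 9.65 and 9.62 in wild type 1, 2 and 3 (9.74 ± 0.01 against 9.65 ± 0.03). The lowest knockout value lay 0.05 above the highest wild-type value, and the gap stayed above 0 after median centring and after quantile normalization of the arrays. The difference was 0.09 ± 0.03 (SE), with a per-gene 95% interval of 0.02 to 0.16 and an adjusted p of 0.919 in limma over all genes. Both knockout arrays gave nearly the same distance from the wild-type mean, 0.09 for knockout 1 and 0.08 for knockout 2.

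Cldn3, the neighbour of Cldn4 on chromosome 5 in the RefSeq annotation and also a barrier-forming claudin, split the knockout arrays. Knockout 1 had the highest value of all arrays at 7.94 and knockout 2 the lowest at 6.95, with 7.55, 7.69 and 7.34 in wild type 1, 2 and 3 between them. This spread of 0.99 was the widest of the 9 genes and wider than that of 97.8% of all genes tested. The group means of 7.45 ± 0.70 and 7.53 ± 0.17 gave a difference of -0.08 ± 0.35 (SE; 95% interval -1.08 to 0.92; limma adjusted p = 1.00). Without knockout 2 the value was 0.42, and without knockout 1 it was -0.57.

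Cldn7, a claudin found along the basolateral membrane as well as in the junction, varied little between arrays. It read 8.888 and 8.820 in knockout 1 and 2 and 8.934, 8.890 and 8.900 in wild type 1, 2 and 3. Both knockout values were the lowest, but the gap to the nearest wild-type value was 0.0014, and the groups overlapped after median centring. The difference of -0.05 ± 0.03 (SE; 95% interval -0.14 to 0.03) was not called (limma adjusted p = 0.919). It was -0.02 without knockout 2 and -0.09 without knockout 1.

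The bases upstream of Cldn4, Cldn3 and Cldn7 are shown because Cldn4 and Cldn7 had groups that did not overlap as deposited and Cldn3, beside Cldn4 in the genome, had the widest spread. They are the 250 bases before the annotated start, from RefSeq on GRCm38.p6 and read 5′ to 3′ on the gene's strand. Capitals mark the motifs searched on both strands that were found: an E-box of the kind bound by Snail and ZEB repressors (CACCTG), a GC box bound by Sp factors (GGGCGG) and an AP-1 site (TGANTCA).
Cldn4, chr5:134946935-134947184, minus strand: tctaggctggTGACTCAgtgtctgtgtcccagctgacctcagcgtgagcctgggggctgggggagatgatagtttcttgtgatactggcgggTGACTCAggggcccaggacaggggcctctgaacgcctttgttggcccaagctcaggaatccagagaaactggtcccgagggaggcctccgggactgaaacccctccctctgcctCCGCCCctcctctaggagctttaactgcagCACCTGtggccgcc
Cldn3, chr5:134985964-134986213, plus strand: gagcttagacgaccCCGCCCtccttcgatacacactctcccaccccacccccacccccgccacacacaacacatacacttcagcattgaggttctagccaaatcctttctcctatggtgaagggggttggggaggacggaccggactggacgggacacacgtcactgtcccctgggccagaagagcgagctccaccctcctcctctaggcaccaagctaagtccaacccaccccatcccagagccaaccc
Cldn7, chr11:69964529-69964778, plus strand (first of 2 annotated starts): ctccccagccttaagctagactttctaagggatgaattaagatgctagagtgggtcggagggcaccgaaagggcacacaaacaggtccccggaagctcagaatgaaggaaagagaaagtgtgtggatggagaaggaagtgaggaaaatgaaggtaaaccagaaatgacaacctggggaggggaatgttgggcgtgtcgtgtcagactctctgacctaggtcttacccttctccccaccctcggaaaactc

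The windows of the neighbours Cldn4 and Cldn3 differed in these letters. That of Cldn4 held 2 AP-1 matches, starting 240 and 158 bases before the start, a GC box at 44 bases and an E-box at 14 bases. The Cldn3 window held 1 GC box, and the Cldn7 window shown held none of the 3 motifs. The window of the second Cldn7 start held 2 E-boxes and 1 GC box. RefSeq's promoter table had an entry for 7 of the 9 genes, in 9 windows, and none for Cldn8 and Marveld3. A GC box was in 8 of these 9 windows, an E-box in 4 and AP-1 in 2. By gene the counts were 7, 4 and 2 of 7. Cldn7 and Ocln each gave 2 windows, and those of Ocln overlap. Of all 32851 promoter windows of that length, 32.7%, 17.2% and 6.7% held the 3 motifs. The 9 windows were 51.2% to 69.2% G and C, and the windows compared were not matched for this. Neither the grainyhead motif (AACCNGTT) nor a TATA box (TATAAA) was found in any of the 9 windows, against 1.8% and 12.4% of all windows. A match is a description of the letters, and binding was not measured.

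Cldn1, which skin and many other epithelia need for their barrier, also separated the knockout arrays from each other. It read 10.36 in knockout 1, the highest value, and 9.80 in knockout 2, the lowest, with 10.23, 10.25 and 10.13 in wild type 1, 2 and 3. The wild-type arrays lay within 0.12 of each other and the knockout arrays 0.56 apart. The difference was -0.13 ± 0.19 (SE; 95% interval -0.67 to 0.42; limma adjusted p = 0.924). It turned to 0.15 without knockout 2 and was -0.40 without knockout 1.

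Cldn8, a claudin best known from kidney tubules, was the 1 of the 9 whose probe set fell below the limit on dim genes tried as an alternative, the 40th percentile of mean signal. Detection calls were not used here, so whether it lay above background is not known. It read 3.12 and 2.87 in knockout 1 and 2 and 3.33, 3.12 and 3.44 in wild type 1, 2 and 3, and knockout 1 and wild type 2 had the same value. The difference of -0.30 ± 0.14 (SE; 95% interval -0.70 to 0.09) was the largest mean difference of the 9 in size and was not called (limma adjusted p = 0.919). It was -0.18 without knockout 2 and -0.43 without knockout 1.

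Marveld3, a MARVEL protein of the strands that also restrains stress kinase signalling, was lower on both knockout arrays than on any wild-type array. It read 6.02 and 5.96 in knockout 1 and 2 and 6.15, 6.13 and 6.13 in wild type 1, 2 and 3 (5.99 ± 0.04 against 6.14 ± 0.01). The groups were 0.12 apart, and they also did not overlap after either other scaling. Wild type 2 and 3 had equal values, so the wild-type spread rests on few distinct readings. The difference was -0.15 ± 0.02 (SE), a knockout to wild-type ratio of 0.90, with a per-gene 95% interval of -0.21 to -0.08. It had the smallest unadjusted p of the 9 genes (0.0035), and limma's adjusted p was 0.919. Without knockout 1 it passed (difference -0.17, limma adjusted p = 0.0263), in a fit that called 7.92% of all genes; without knockout 2 it did not (-0.12, adjusted p = 0.0723), in a fit that called 3.76% of all genes. In both fits the lone knockout array is assumed to vary like the wild type.

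Ocln, occludin, the first transmembrane protein identified in these junctions, was the gene in which knockout 2 was not low and the wild type was wide. Values of 8.54 and 8.59 in knockout 1 and 2 fell inside the wild-type values of 8.77, 8.31 and 8.59, and knockout 2 and wild type 3 were equal. The difference was 0.01 ± 0.15 (SE; 95% interval -0.43 to 0.45; limma adjusted p = 1.00), and it was -0.02 without knockout 2 and 0.03 without knockout 1. The neighbouring gene on chromosome 13, Marveld2, which encodes the tricellular junction protein tricellulin, read 7.97 to 7.98 on all arrays, with only 2 distinct values (chosen after its values were seen).

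F11r, the junctional adhesion molecule JAM-A, overlapped between the genotypes. It read 8.90 and 8.76 in knockout 1 and 2 and 8.84, 8.78 and 8.84 in wild type 1, 2 and 3. Its difference was 0.01 ± 0.05 (SE; 95% interval -0.14 to 0.16; limma adjusted p = 1.00), and it was 0.08 without knockout 2 and -0.06 without knockout 1. Tjp1, the scaffold ZO-1, read 9.34 and 9.05 in knockout 1 and 2 and 9.34, 9.41 and 9.30 in wild type 1, 2 and 3. Knockout 1 lay among the wild-type arrays and knockout 2 below them all. The Tjp1 difference was -0.15 ± 0.10 (SE; 95% interval -0.45 to 0.15; limma adjusted p = 0.919), and it was -0.01 without knockout 2 and -0.30 without knockout 1.

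**Figure D1:**
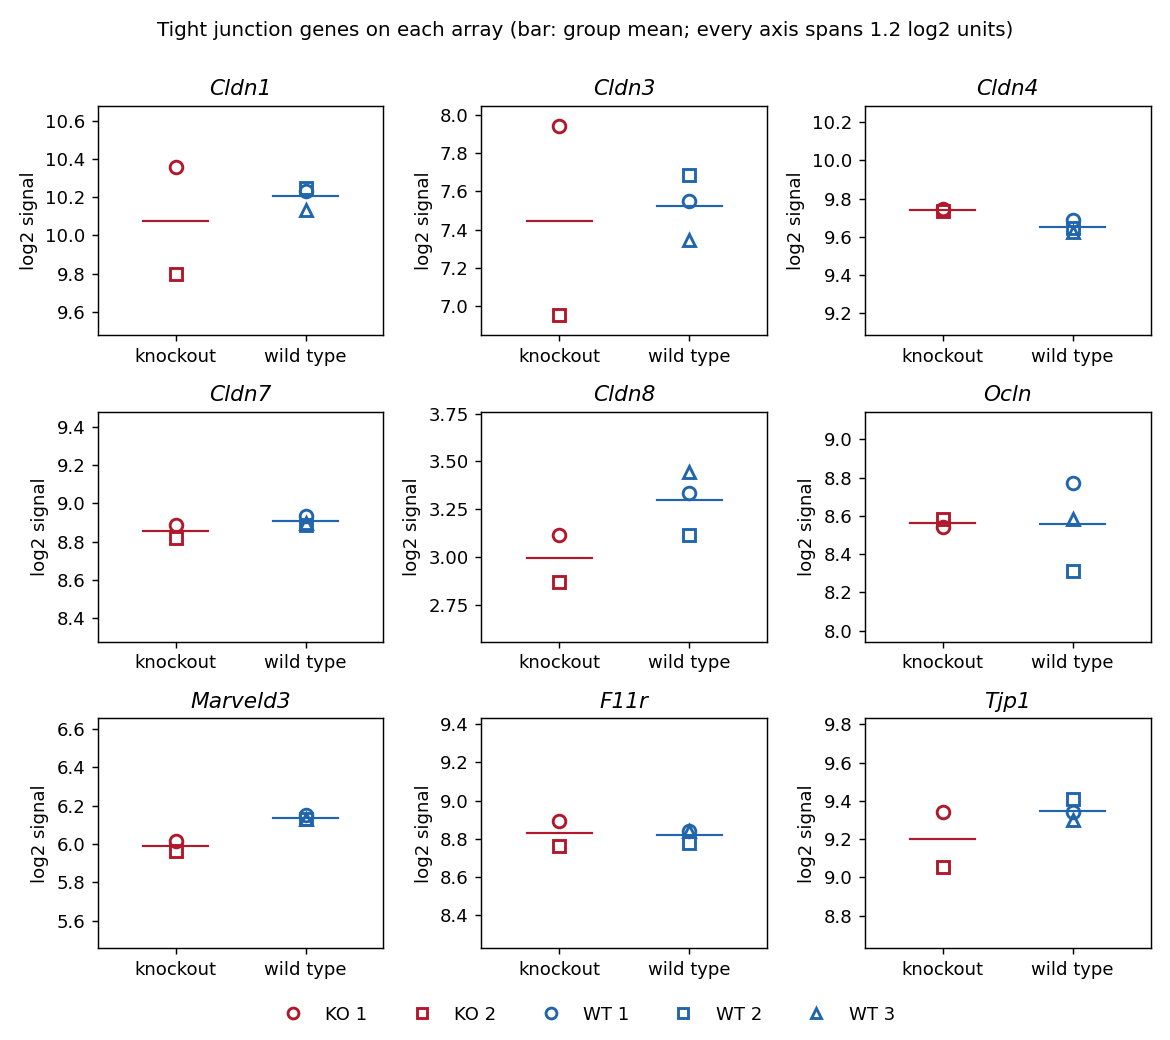
Log2 signal of each of the 9 genes on the 5 arrays (red, knockout; blue, wild type; marker shape, array; bar, group mean), every panel spanning the same height. Cldn4 and Marveld3 show separate groups, while in Cldn1 and Cldn3 knockout 1 is the highest and knockout 2 the lowest array.

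Over the 9 genes, 0 passed limma's adjusted p of 0.05, as did 0.0% of all genes tested. At an unadjusted p under 0.05 there were 2, Marveld3 and Cldn4, against 1.3% of all genes. Every knockout value exceeded every wild-type value for 1 of the 9 (Cldn4; 2.63% of all genes) and was below every wild-type value for 2 (Marveld3 and Cldn7; 2.8% of all genes). The mean was lower in the knockout for 6 and higher for 3, where 51.4% of all genes were lower. The median difference was -0.08, and the median over all genes was 0.00. For 6 of the 9 the 95% interval lay within a 1.5-fold change in either direction, the exceptions being Cldn1, Cldn3 and Cldn8. The same held for 18728 of the 22180 genes tested and for 8556 of the 11090 above the median signal.

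**Figure D2:**
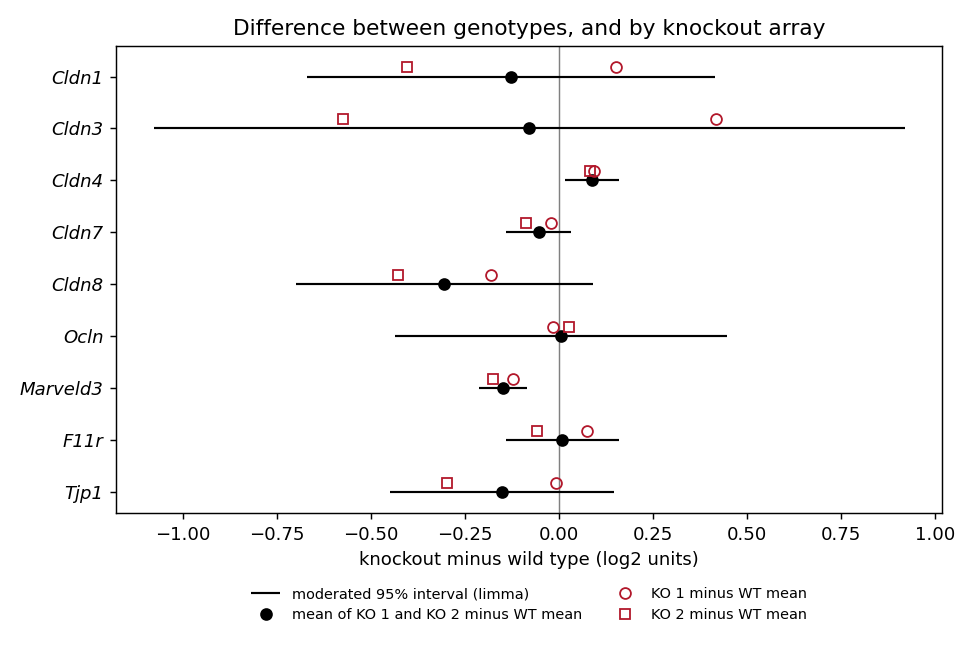
Knockout minus wild type in log2 units for each gene (black point, with limma's 95% interval as a line) and the same difference for each knockout array alone (red circle, knockout 1; red square, knockout 2). The red symbols lie far apart for Cldn3 (0.42 and -0.57) and Cldn1 (0.15 and -0.40) and close together for Cldn4 (0.09 and 0.08).

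Knockout 2 was alone the lowest array for 7 of the 9 genes (Cldn1, Cldn3, Cldn7, Cldn8, Tjp1, F11r and Marveld3), against 22.5% of all genes tested and 32.3% of those above the median signal. This count was made after the values were seen. It was 7 after median centring (35.1% of all genes) and 5 after quantile normalization (27.7%), where F11r was lowest in wild type 2 and Marveld3 in knockout 1. Knockout 1 read above knockout 2 for 8 of the 9 genes, Ocln being the other, against 38.4% of all genes and 52.1% of those above the median signal. The median gap between the knockout arrays was 0.13 for the 9 genes, 0.08 for all genes and 0.13 for those above the median signal. The median of the 9 differences was -0.17 for knockout 2 alone and -0.01 for knockout 1 alone.

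The mean of the general epithelial markers moved with that of the tight junction genes across the knockout arrays. Of 15 such markers 14 were measured. Their mean signal was 8.96 in knockout 1 and 8.60 in knockout 2, against 8.84 to 8.91 in the wild type, and relative to the wild-type mean it was 0.10 and -0.26. The 9 tight junction genes together stood at 0.04 and -0.21. Knockout 2 was the lowest array for 10 of the 14 markers, and knockout 1 read above knockout 2 for all 14. The markers did not fall alike in knockout 2. Relative to the wild-type mean, Rab25 was -0.80, Esrp1 -0.51 and Esrp2 -0.46 there. Epcam was 0.001, Krt19 0.03 and Cdh1 -0.02 (all chosen after their values were seen). In bulk RNA, fewer epithelial cells and less RNA per epithelial cell cannot be told apart. Setting the epithelial marker mean equal on all arrays left a median difference of 0.00 over the 9 genes, with Cldn4 at 0.17, Marveld3 at -0.07 and Cldn3 at 0.00 (limma adjusted p = 1.00 for each). This setting moves the difference of every gene by the same amount, set by the marker list's own mean difference of -0.08. It therefore cannot show the part of epithelial content in the separate results, which was not tested.

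Within the epithelium, the mean of each luminal list was lowest in knockout 2 as well. For the 5 of 7 luminal hormone-sensing markers measured it was 0.12 in knockout 1 and -0.41 in knockout 2, relative to the wild-type mean, with Esr1 going the other way (6.12 in knockout 2, its highest array). For 9 luminal progenitor and alveolar markers it was -0.17 and -0.83, with wild type 2 at -0.28, below knockout 1. Knockout 2 was the lowest array for 7 of these 9, while Wap went the other way (4.65 in knockout 2, its highest array). The milk protein gene Csn2 weighed heavily on the mean of this list, at 4.59 and 2.90 in knockout 1 and 2. It read 7.69, 3.70 and 7.06 in the wild type. The medians over the 9 markers were -0.04 and -0.52 (Esr1, Wap and Csn2 chosen after their values were seen). The 8 of 9 measured basal myoepithelial markers stood at 0.07 and 0.22. Wild type 2 was higher for this basal list, at 0.26. The array with the lowest tight junction mean had the lowest means of both luminal lists and not of the basal list. The part of luminal content in the tight junction signals was not tested.

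Markers of cells outside the epithelium did not share one direction between the genotypes. Between the knockout arrays, the mean was higher in knockout 2 for every such list except the macrophage and monocyte markers. Fibroblast markers (9 genes) had mean signals of 8.49 and 8.65 in knockout 1 and 2 against 8.19 to 8.79 in the wild type. Endothelial markers (9) were 6.38 and 7.12 against 6.64 to 7.08, so that knockout 1 was the lowest array and knockout 2 the highest. Adipocyte markers (7) were 5.25 and 5.48 against 5.30 to 5.40, again with knockout 1 the lowest array and knockout 2 the highest. Macrophage and monocyte markers (6) were 5.70 and 5.59 against 5.47 to 5.96. T and B cell markers (6 of 7 measured) were 4.00 and 4.18 against 4.16 to 4.71, and keratinocyte and hair markers (9) were 4.05 and 4.11 against 4.04 to 5.01, the highest in wild type 1. The part of these cells in the tight junction signals was not tested.

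**Figure D3:**
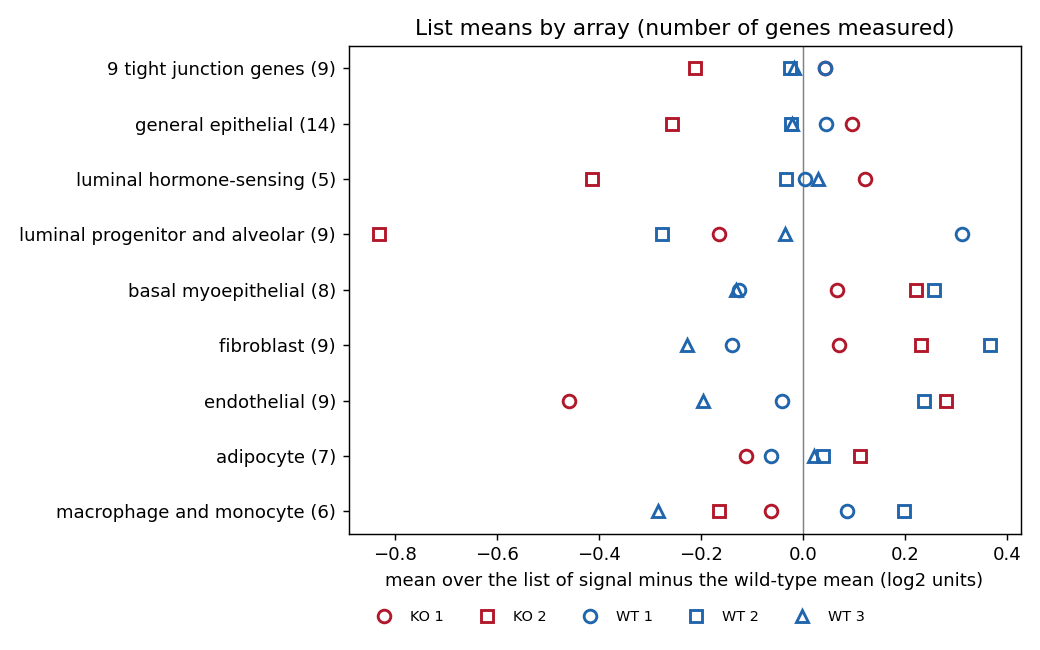
For the 9 tight junction genes and 8 marker lists, the mean over the list of each array's log2 signal minus the wild-type mean (red circle and square, knockout 1 and 2; blue circle, square and triangle, wild type 1 to 3). Knockout 2 is the lowest array for the tight junction genes (-0.21), the general epithelial markers (-0.26) and both luminal lists. It is the highest for the endothelial (0.28) and adipocyte (0.11) markers.

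The other genes of the tight junction gave no call. Of 60 listed by role, 56 were measured, 32 with a higher and 24 with a lower mean in the knockout, with a median difference of 0.01. None passed limma's test (smallest adjusted p = 0.919), 0 had an unadjusted p under 0.05, and differences ran from -0.39 to 0.27. Ybx3, a Y-box protein that binds ZO-1, was the 1 gene whose groups did not overlap, at 10.48 and 10.49 in knockout 1 and 2 against 10.46, 10.38 and 10.46 in the wild type (2.63% of all genes lay higher in this way). Knockout 2 was the lowest array for 20 of the 56 and the highest for 13. Of the 40 above the median signal it was lowest for 17, where the share of all such genes was 32.3%. By role it was lowest for 5 of 20 claudins, 1 of 5 JAM and immunoglobulin proteins, 1 of 5 MARVEL and angulin proteins, 3 of 8 scaffolds, 4 of 8 polarity genes and 6 of 10 regulators.

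Of 20 other claudins, 10 had a higher and 10 a lower mean. Cldn6, a claudin of embryonic epithelia, had the widest range of them. It read 6.99 in knockout 1 and 5.72 in knockout 2, and all wild-type arrays had the same value of 6.26. Its knockout arrays thus lay on either side of the wild type, as those of Cldn3 did, and the difference was 0.10 ± 0.42 (SE; limma adjusted p = 1.00). Cldn5, the claudin of endothelium, read 6.44 and 6.78 against 6.44, 6.96 and 6.06 (chosen after its values were seen).

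Among 5 JAM and immunoglobulin proteins, Jam3 had the widest range, at 4.79 and 5.30 in knockout 1 and 2 against 4.90, 5.12 and 4.41 in the wild type. Esam, an endothelial adhesion molecule, read 4.95 and 5.74 against 5.33, 5.35 and 5.32, and Jam2, found in endothelium, read 5.94 and 6.67 against 6.20, 6.49 and 6.401 (both chosen after their values were seen). Knockout 2 was the highest array for Jam3, Esam and Jam2. All 5 MARVEL and angulin proteins had a higher mean in the knockout, with a median of 0.08, but 3 of them turned sign when 1 knockout array was left out. Lsr was -0.01 and Ildr1 -0.0098 without knockout 1, and Marveld1 was -0.28 without knockout 2. The widest was Marveld1, at 6.09 and 6.82 against 6.09, 6.62 and 6.41.

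Among the scaffolds, polarity genes and regulators, the gene of widest range in each group was lowest in knockout 2. A gene chosen for its range tends to have an extreme array, so this was partly set by the choice. Cgn, cingulin, which links ZO-1 to actomyosin, read 8.001 in knockout 1 and 7.12 in knockout 2, against 8.08, 7.89 and 7.89 in the wild type, and its difference was -0.39 ± 0.30 (SE; limma adjusted p = 0.919). Knockout 1 lay within the wild-type range and knockout 2 far below it, and without knockout 2 the Cgn difference was 0.05. Pard6b, an adaptor of the Par polarity complex, read 6.65 and 6.23 against 6.83, 6.65 and 6.65. Prss8, prostasin, a membrane protease that acts on barrier function, read 7.96 and 6.72, with the same value of 7.61 on all wild-type arrays. Over 8 scaffolds the median difference was -0.01, over 8 polarity genes 0.03 and over 10 regulators 0.02. The regulators share 4 genes with the general epithelial markers.

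**Figure D4:**
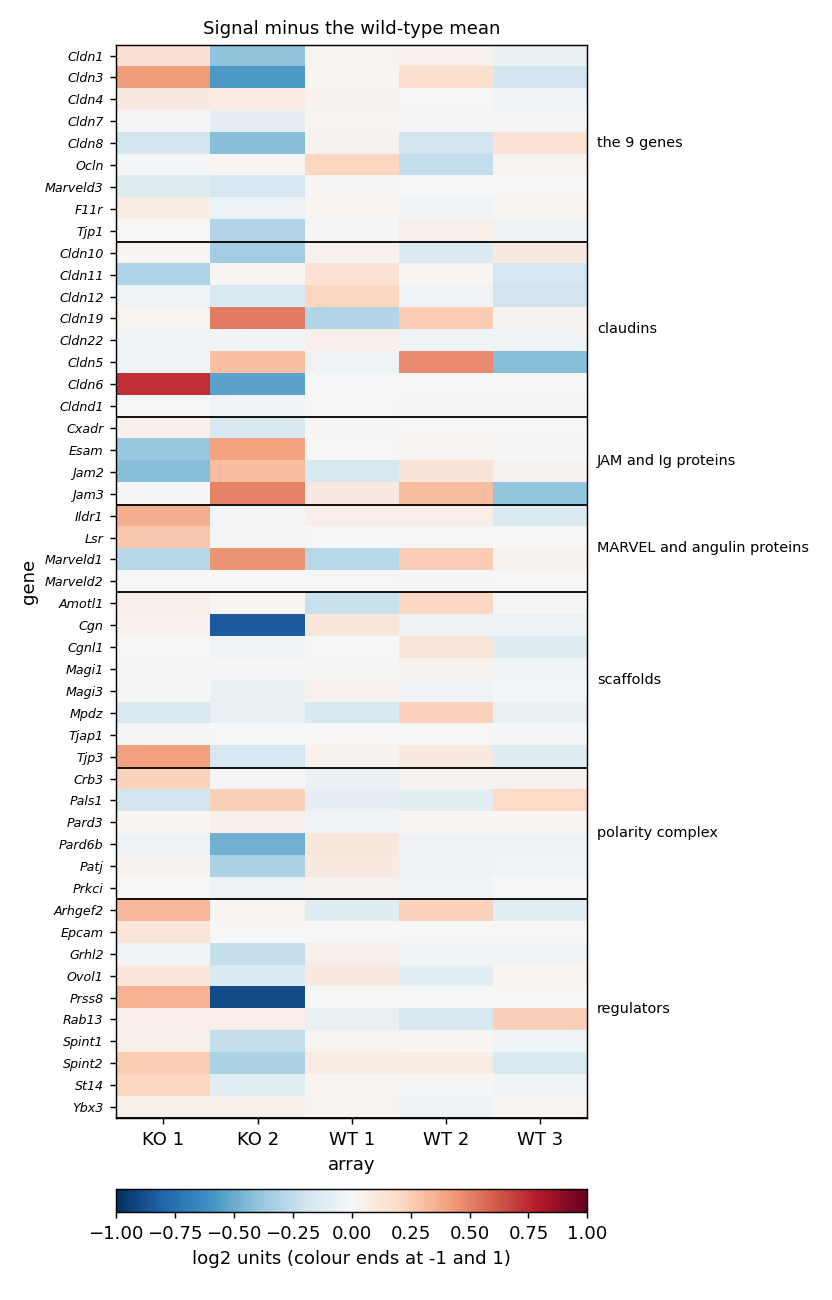
Log2 signal minus the wild-type mean on each array (columns) for the 9 genes and for the 40 other tight junction genes above the median signal (rows, by role), red for higher and blue for lower. Knockout 2 is blue in Cldn1, Cldn3, Cgn (-0.83) and Prss8 (-0.89) and red in Esam (0.40) and Jam3 (0.49).

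The genes whose array profile lay nearest to the mean of the 9 were Itgb3bp, Cdk19 and Slc25a20. The mean profile, each gene centred on its own mean, was 0.08 and -0.18 in knockout 1 and 2 and 0.08, 0.01 and 0.02 in wild type 1, 2 and 3. Likeness was the largest distance from it on any of the 5 arrays, among 9340 genes with at least the same range, and it was 0.02 for each of the 3.

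The array numbers in the labels form 2 runs, the first with knockout 1 and wild type 1 and 2, the second with wild type 3 and knockout 2, and the labels do not say what a run is. Within the first run the median difference of the 9 genes was 0.00 and within the second, with 1 array per genotype, -0.17. Cldn4 was 0.08 and 0.11 and Marveld3 -0.12 and -0.17, but groups that do not overlap fix these signs in advance. The sign was also the same in both runs for Cldn7 (-0.02 and -0.08), where it was fixed likewise. So it was for Cldn8 (-0.11 and -0.57) and Tjp1 (-0.03 and -0.25). Cldn1 and Cldn3 were 0.115 and 0.33 in the first run and -0.33 and -0.39 in the second. Mmp14 was -0.43 in the first run and -0.46 in the second. A fit blocked on replicate number moved the median of the 9 differences to -0.15.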

How the data were processed

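Cells of 5 samples were profiled on Affymetrix arrays from 10 ng of total RNA. The authors deposited 1 log2 signal for each probe set and array. RMA and limma are named, without versions, per the submitters' processing notes. The array's library files and genome build were not given in the sources used here. Of 41345 probe sets, 23521 had 1 gene symbol, 1814 several and 16010 were not listed; single-symbol probe sets were used, the brightest per gene, which left 22180 genes. Under R 4.3.3, the lmFit and eBayes functions of limma 3.58.1 were run over all genes with genotype as the only term, with two-sided p-values adjusted by Benjamini-Hochberg. Intervals are limma's moderated 95% intervals, not adjusted for the number of genes. The number of arrays limits the precision. The procedure was tested on simulated data.

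The 9 genes and all lists were chosen with earlier results of these data known. Named besides them are Mmp14, the other tight junction genes whose groups did not overlap, the widest-range gene per role of that list, and the 3 nearest profiles in the arrays. The text marks genes named after their values were seen. List symbols were matched through RefSeq synonyms where needed.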

Additional observations from a re-analysis of the deposited data

How the results depend on the processing

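The count of 0 called genes held in the alternatives that kept all 5 arrays (both scalings, all probe sets, no dim genes, mean of probe sets, intensity trend, array weights and the blocks) and in run 1 alone; leaving out 1 array gave 0 to 1757 calls, 1757 without knockout 1 and 835 without knockout 2. Of the 9 genes 0 to 1 was called when 1 array was left out (Marveld3, without knockout 1) and 0 in every other alternative.

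The median difference of -0.08 was -0.15 with the replicate number as a block, -0.0477 with the run as a fixed block, 0.00 (-0.0023) in run 1 alone, -0.17 within run 2 and 0.0024 with equal epithelial marker means; leaving out 1 array moved it between -0.1747 and -0.0061. The replicate block changed no call. The labels do not say that replicate numbers pair animals, so the main fit had no such block. Same-numbered arrays deviated from their group means with correlations of 0.245 and -0.044 across genes, and knockout 2 and wild type 3 with 0.261. Deviations of 2 knockout arrays from their own mean mirror each other, so these correlations cannot decide on pairing.

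Signs turned as follows. In run 1 alone Cldn1 was 0.115, Cldn3 0.33 and Ocln -0.0023. With the run as a fixed block Cldn3 was 0.0183 and Ocln -0.0013. With equal epithelial marker means Cldn3 was 0.0024 and Cldn7 0.0272. Ocln was -0.0298 with array weights, and F11r -0.0784 within run 2. Leaving out 1 array moved Cldn1 between -0.40 and 0.15, Cldn3 between -0.57 and 0.42, F11r between -0.0568 and 0.0764 and Ocln between -0.12 and 0.11. Cldn4, Cldn8, Tjp1 and Marveld3 kept their sign in every alternative run. For Cldn4 and Marveld3, groups that do not overlap fix the sign in advance when an array is left out or within a run. The scalings behind the counts of non-overlapping groups and of lowest arrays were added after seeing the data. Each gene had 1 probe set, so no other probe set could be tried; Cldn8 fell below the limit on dim genes.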
